A study of Mus musculus with 169 samples.

Results

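The nuclear genes of the mitochondrial respiratory chain and ATP synthase were examined in samples sorted as mouse brain microglia, with and without progranulin. Genes were taken by symbol: complex I (Nduf), complex II (Sdha to Sdhd), complex III (Uqcr), the nuclear subunits of complex IV (Cox4 to Cox8) and complex V (Atp5). The RefSeq gene table lists 99 such symbols, and 93 of them, of 20145 symbols with a probe, were on the arrays with 124 probes. The 6 without a probe were Cox6c2, Ndufa11b, Ndufb1, Ndufb4b, Ndufb4c and Ndufs6b. Each gene was read from its brightest probe. The symbols gave 38 genes under complex I, 8 complex I assembly factors (Ndufaf1 to Ndufaf8, which help build the complex and are not subunits of it), 4 genes of complex II, 8 of complex III, 18 of complex IV and 17 of complex V.

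The respiratory chain moves electrons from NADH (complex I) and succinate (complex II) through ubiquinone, complex III and cytochrome c to oxygen at complex IV. Complexes I, III and IV pump protons as they do so, and ATP synthase, or complex V, uses the returning protons to make ATP. Each complex but the second also holds subunits encoded by the mitochondrial genome, which were not analysed here. Microglia, the resident macrophages of the brain, make ATP both by this route and by glycolysis, and the balance is known to move with their activation.

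The study compared mice carrying both copies of the progranulin gene (Grn+/+, WT) with mice lacking it (Grn-/-, KO), on the C57B/6J background, in bead arrays of brain regions and, used here, Agilent arrays of sorted microglia. Microglia were purified from mice of 4 and 16 months on Percoll gradients followed by cell sorting for CD11b, CD45 and Ly6G. At 4 months there were 4 arrays of WT and 3 of KO mice, and at 16 months 4 of each genotype. The knockout is present in every cell of the KO animals, and the labels give neither sex nor whether each array is a separate animal, so p-values measure the spread between these samples. At 16 months, WT arrays 1 and 2 differed by less than repeat spots of 1 array did, as did WT arrays 3 and 4. Each pair was averaged and counted as 1 sample, which left 2 WT replicates at 16 months and 13 replicates in all. The ages were run on separate slides. Age therefore cannot be told apart from slide, and no level was compared between ages. Position on the slide and genotype cannot be told apart either.

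The level of a gene is given as log2 of its processed signal over the 75th percentile of that array, so 0 is the 75th percentile and 1 unit is a doubling. That percentile ran from 1306 to 1649 in the WT and from 1072 to 1752 in the KO arrays at 4 months. At 16 months it ran from 1010 to 1511 in WT and from 507 to 1037 in KO. The share of probes well above background was 64.6% to 76.5% in every array but those of the 16-month KO mice, where it was 54.2% to 62.7%. Grn itself had levels of 6.13 to 6.32 in WT and -3.36 to -2.06 in KO at 4 months. At 16 months it stood at 4.61 and 5.46 in WT and was not well above background on any KO array, which follows the labels. Of the 93 genes, 90 were well above background on all 15 arrays and 91 passed the filter of at least 3 such arrays. Ndufa4l2 passed on 8 arrays, all of them WT, while Cox7b2 (2 arrays) and Cox8c (1 array) did not pass and were not tested.

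The cell type label was checked on 10 microglia markers, all of which were above background on all 15 arrays. Their summed signal, relative to the 75th percentile, was 1270 to 1640 in WT and 1220 to 1970 in KO at 4 months. At 16 months it was 899 and 1500 in WT and 191 to 516 in KO, and 8 of the 10 fell, among them Tmem119 (-3.77) and Cx3cr1 (-4.32) on the log2 scale. The summed signal of 12 choroid plexus markers was 14 to 151 in WT and 249 to 376 in KO at 4 months, and 466 and 848 in WT and 1320 to 2640 in KO at 16 months, where 6 of the 12 rose. The 10 other cell type lists had 1 to 7 markers tested and at most 3 called in one direction. Of 6 oligodendrocyte markers 3 fell and 1 rose. Hba-a1, the single red blood cell marker tested, rose by 4.42 on the log2 scale, from relative signals of 0.241 and 0.137 in WT to 0.744, 6.52, 4.10 and 11.7 in KO. The summed signal of 5 neutrophil markers was 269 and 62.6 in WT and 129, 0.67, 126 and 0.522 in KO replicates 1 to 4. In bulk samples fewer cells of a type and less RNA per cell cannot be told apart.

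The promoters of the genes are shown first. RefSeq promoters (GRCm38.p6, 250 bases before to 50 after the start) were matched for 76 of the 93 genes. Altogether 4 short stretches of letters were searched on both strands. GCGCATGC, the core letters of sites bound by nuclear respiratory factor NRF1, stood in 15.8% of the 76 promoters and in 3.05% of the 27025 genes with a promoter in the table. CCGGAAG, the core of ETS sites such as those of GABP, stood in 25.0% against 9.93%. AAGATGGC, the core of YY1 sites, stood in 14.5% against 3.19%. The TATA letters TATAAA stood in 10.5% against 15.7%. Among the 39 matched genes that rose at 16 months, the first 3 stretches were found in 15.4%, 25.6% and 12.8%, and TATAAA in 0. In the other 37 matched genes, which did not pass the test or were not tested, the shares were 16.2%, 24.3%, 16.2% and 21.6%. A match describes letters only and is not a binding site.

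The 120 bases before the start are printed for the genes with the largest and smallest difference at 16 months among those holding the NRF1 or the ETS letters there, and for Ndufs8, the member with the largest difference of all. Capitals mark the matched letters. In Ndufa11 and Atp5k the NRF1 letters of both strands overlap.
Ndufa11 (chr17:56717642-56717761, plus strand): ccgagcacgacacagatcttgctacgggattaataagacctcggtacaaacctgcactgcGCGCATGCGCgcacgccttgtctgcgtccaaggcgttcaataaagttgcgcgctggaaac
Atp5k (chr5:108434400-108434519, minus strand): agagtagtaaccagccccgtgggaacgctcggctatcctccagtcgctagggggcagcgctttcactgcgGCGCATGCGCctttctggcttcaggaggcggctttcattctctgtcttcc
Cox6b1 (chr7:30626115-30626234, minus strand): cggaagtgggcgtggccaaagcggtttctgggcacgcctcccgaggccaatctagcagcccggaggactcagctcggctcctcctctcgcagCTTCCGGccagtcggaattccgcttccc
Ndufaf8 (chr11:120098814-120098933, plus strand): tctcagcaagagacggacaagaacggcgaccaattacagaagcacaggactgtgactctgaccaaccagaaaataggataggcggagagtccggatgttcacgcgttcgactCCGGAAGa
Ndufs8 (chr19:3912775-3912894, minus strand): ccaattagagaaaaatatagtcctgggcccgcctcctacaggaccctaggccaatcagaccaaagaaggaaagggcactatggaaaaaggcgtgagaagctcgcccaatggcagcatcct
Ndufa11 and Cox6b1 rose at 16 months, while Atp5k and Ndufaf8, with the same letters, did not pass the test. Ndufs8 held none of the 4 stretches in these bases.

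At 16 months, 46 of the 91 genes tested were higher in the KO than in the WT sorted samples and 0 were lower. Of the 91 fitted differences, 87 were above 0. In the KO samples the choroid plexus markers summed to 1320 to 2640 and the microglia markers to 191 to 516. In WT these sums were 466 and 848, and 899 and 1500. Differences were tested with limma's moderated test in 1 fit over 31927 features, adjusted by the Benjamini-Hochberg method. An adjusted p below 0.05 passed, and "rose" and "fell" are used for differences that passed it. Of all features, 19.3% were higher and 15.0% lower in the same comparison. With the arrays scaled on probes seen above background on every array instead, these shares were 14.5% and 19.1%, and 37 of the 91 genes rose. The median difference of the 91 genes was 1.45 on the log2 scale, against 0.12 for all features and 0.20 for those with a gene symbol. The genes are bright, and among 1321 features with a symbol and a mean level between the quartiles of the 91 genes, 32.6% were higher and 19.9% lower, with a median difference of 0.44. All KO replicates lay above both WT replicates for 44 of the genes and below them for 1, Ndufa4l2, and for 24.3% and 17.9% of all features. Ndufa4l2 passed the filter through WT arrays alone, and its KO values were all at the lowest level told from background. Its place below WT is therefore not a measured difference. By complex, the genes that rose were 18 of 38 in complex I, 6 of 8 assembly factors, 3 of 4 in complex II, 4 of 8 in complex III, 5 of 16 tested in complex IV and 10 of 17 in complex V. The median difference was 1.51 in complex I, 1.16 for the assembly factors, 1.69 in complex II, 1.54 in complex III, 1.26 in complex IV and 1.16 in complex V. Without WT replicate 3 and 4 these medians were 1.00, 0.94, 1.46, 1.05, 0.66 and 0.72 in the same order. Without KO replicate 2 that of complex IV was 0.68, and with quantile normalization those of complexes I to V lay between 0.45 and 0.98. Without WT replicate 1 and 2 the medians of complexes IV and V were 1.96 and 1.76. The count also depended on the WT samples: without WT replicate 3 and 4 only 19 of the 91 rose, and with the 16-month arrays fitted alone 13 did.

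**Figure D1:**
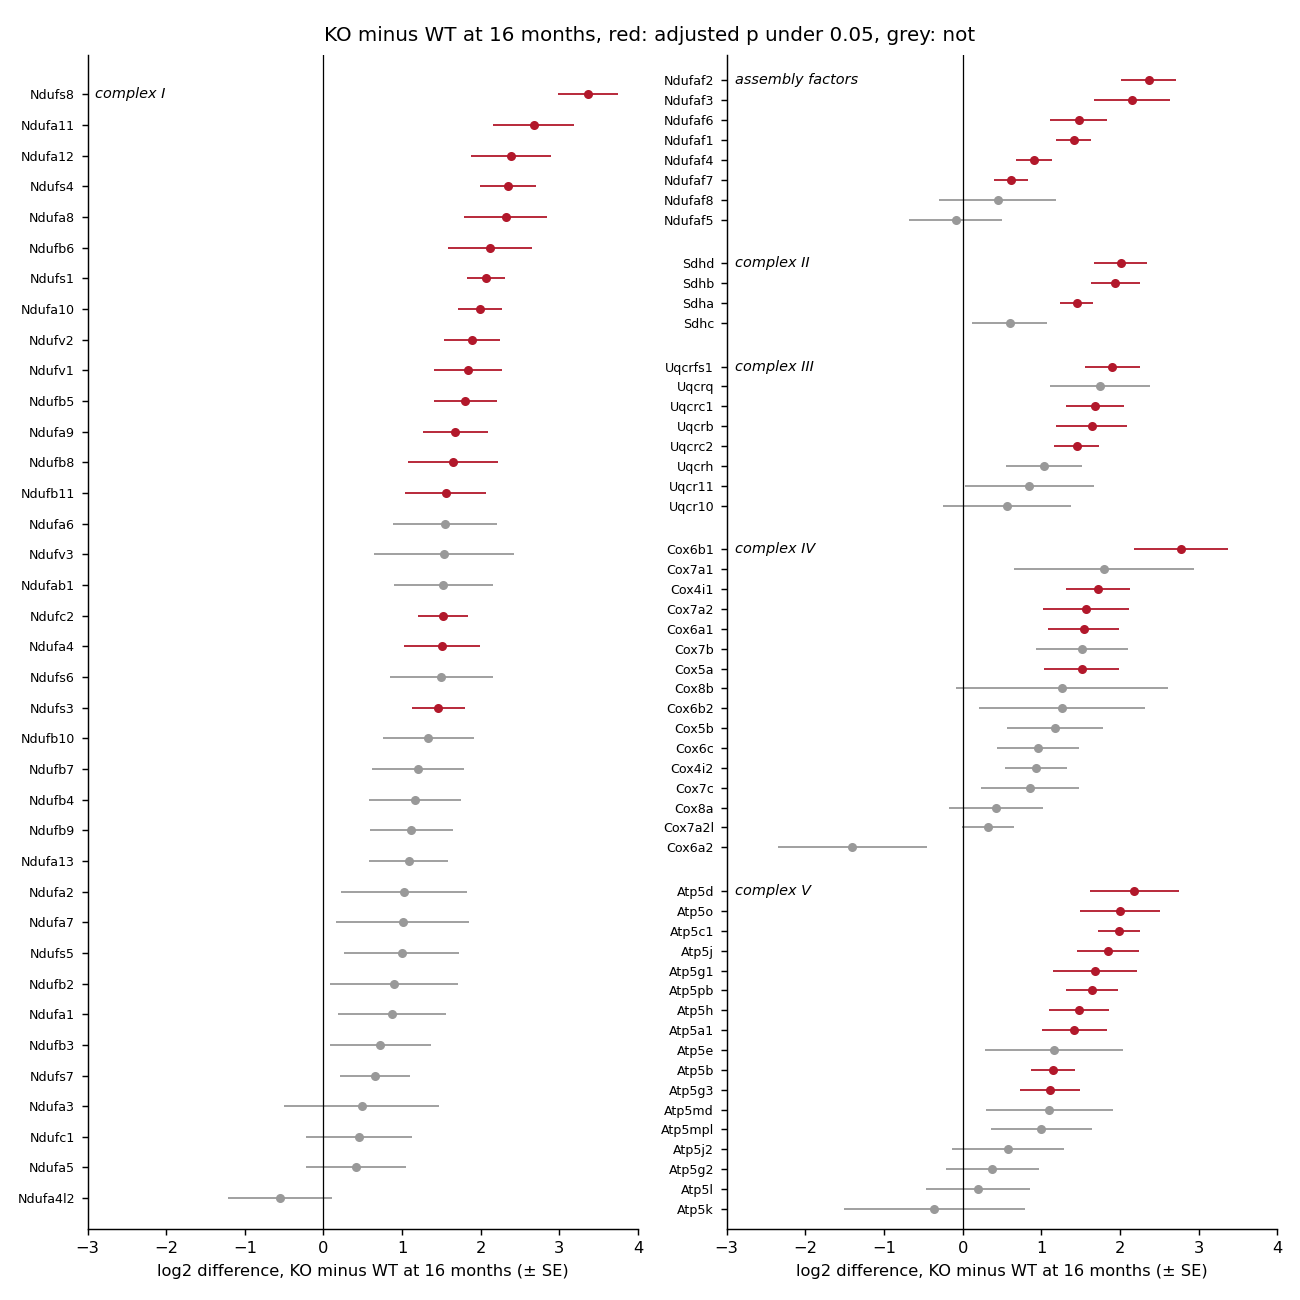
Log2 difference, KO minus WT at 16 months, with its standard error for 90 of the 91 genes tested, by complex; red points passed the test and grey points did not. Most points lie right of 0, Ndufs8 is farthest right at 3.37, and complex IV and the lower end of complex V are mostly grey.

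The core subunits of complex I carry its flavin and iron-sulfur clusters and pass electrons to ubiquinone. Ndufs8, an iron-sulfur subunit on the electron path to ubiquinone, stood at 2.55 and 2.37 in the WT replicates and at 6.05, 6.49, 5.32 and 5.44 in the KO replicates at 16 months. Every KO value was above both WT values, and the difference was 3.37 (SE 0.383, adjusted p = 0.000221 by limma), or 10.3-fold. Ndufs1, the largest core subunit and an early carrier of electrons from NADH, stood at 3.99 and 3.61 in WT and at 5.95, 5.95, 5.72 and 5.86 in KO. Its 4 KO replicates spanned 0.236, the narrowest span of the 90 genes above background on all arrays, and it rose by 2.07 (SE 0.242, adjusted p = 0.000253), or 4.2-fold. Ndufv1, which binds NADH and the flavin, rose by 1.83, and its partner Ndufv2 by 1.89. Ndufs3, a core subunit of the peripheral arm, rose by 1.46. Ndufs7, which carries the last cluster before ubiquinone, stood at 4.87 and 4.91 in WT and at 5.17, 6.63, 5.63 and 4.75 in KO, so the groups overlapped, and its difference of 0.66 (SE 0.448) did not pass.

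Of the 31 accessory genes of complex I, 12 rose, and their median difference was 1.50. Ndufa11, an accessory subunit of the membrane arm, stood at 0.77 and -0.43 in WT and at 2.40, 4.10, 2.67 and 2.21 in KO, and rose by 2.68 (SE 0.516, adjusted p = 0.00315 by limma), or 6.39-fold. Ndufs4, an accessory subunit of the peripheral arm whose loss causes a Leigh-like encephalopathy in mice, stood at 5.23 and 4.39 in WT and at 7.49, 7.67, 6.69 and 6.75 in KO, and rose by 2.34. Ndufa12, which takes the place of the assembly factor Ndufaf2 in the finished complex, rose by 2.39, and Ndufa8 and Ndufb6, both of the membrane arm, by 2.32 and 2.11. The others that rose were Ndufa10 (1.99), Ndufb5 (1.80), Ndufa9 (1.68), Ndufb8 (1.65), Ndufb11 (1.55), Ndufc2 (1.52) and Ndufa4 (1.51). Ndufa4 keeps its complex I name but is now counted as a subunit of complex IV. Ndufc2 stood at 6.72 and 6.05 in WT and at 7.99, 8.30, 7.88 and 7.44 in KO, with no overlap.

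The 19 complex I accessory genes that did not pass had differences from -0.55 to 1.54. Ndufv3, a small subunit of the peripheral arm, had a difference of 1.53 but a standard error of 0.893: its KO values were 4.97, 8.28, 5.81 and 4.42 against 5.12 and 3.55 in WT. Ndufa3, a small membrane arm subunit, stood at 5.91 and 4.26 in WT and at 4.55, 8.13, 5.96 and 3.62 in KO, and the groups overlapped at both ends. Ndufab1, the mitochondrial acyl carrier protein, stood at 2.34 and 0.01 in WT and at 2.82, 3.41, 2.43 and 2.15 in KO. Ndufa4l2, the isoform known for induction in low oxygen, was at the lowest level that could be told from background in all 7 KO replicates of both ages, and the difference of -0.55 is not a measured fold.

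Among the assembly factors, 6 of 8 rose. Ndufaf2 stood at 2.47 and 2.34 in WT and at 4.81, 5.27, 4.66 and 4.34 in KO, and rose by 2.37 (SE 0.348, adjusted p = 0.000774 by limma), or 5.16-fold. Ndufaf3 rose by 2.16, and Ndufaf4, which acts with it early in assembly, by 0.91 from 3.25 and 2.59 in WT to 4.18, 3.71, 3.67 and 3.72 in KO. Ndufaf6 rose by 1.47 and Ndufaf1, of the complex that builds the membrane arm, by 1.41. Ndufaf7, a methyltransferase that acts in complex I assembly, rose by 0.62, the smallest change among the 46 genes that rose. Ndufaf8 had a difference of 0.45 (SE 0.743). Ndufaf5, which hydroxylates Ndufs7, stood at 0.54 and -1.78 in WT and at 0.38, -1.09, -1.20 and -0.92 in KO, and its difference of -0.09 changed sign with 4 settings.

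In complex II, succinate dehydrogenase, 3 of 4 subunits rose. Sdha, the flavin subunit that oxidises succinate, stood at 4.50 and 4.17 in WT and at 6.00, 5.75, 5.79 and 5.61 in KO, and rose by 1.45 (SE 0.21, adjusted p = 0.000717 by limma), or 2.73-fold. Sdhb, the iron-sulfur subunit, stood at 5.87 and 5.58 in WT and at 7.73, 8.38, 7.25 and 7.29 in KO, and rose by 1.94. Sdhd, a membrane anchor, stood at 5.34 and 4.60 in WT and at 7.62, 6.44, 6.94 and 6.92 in KO, and rose by 2.01, or 4.03-fold. In these 3 genes no KO replicate reached down to a WT value. Sdhc, the other anchor, stood at 5.95 and 4.95 in WT and at 5.60, 7.18, 6.13 and 5.29 in KO, and its difference of 0.60 (SE 0.474) did not pass.

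In complex III, the 4 genes that rose were its catalytic and core subunits and 1 ubiquinone-binding subunit. Uqcrfs1, the Rieske iron-sulfur protein, stood at 6.15 and 5.34 in WT and at 7.75, 8.24, 7.38 and 7.22 in KO, and rose by 1.90 (SE 0.348, adjusted p = 0.00241 by limma), or 3.74-fold. Uqcrc1 and Uqcrc2, the core proteins on the matrix side, rose by 1.68 and 1.45. Uqcrb, which lies by the ubiquinone site, stood at 6.86 and 5.54 in WT and at 7.55, 8.72, 7.77 and 7.31 in KO, and rose by 1.64. The 4 small subunits that remain did not pass: Uqcrq (difference 1.74, adjusted p = 0.056), Uqcrh, the hinge protein beside cytochrome c1 (1.03), Uqcr11 (0.85) and Uqcr10 (0.56). In each of these the KO replicates overlapped the WT replicates.

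Of the 16 complex IV genes tested, 5 rose, and 5 of the others are isoforms known from particular tissues. Cox6b1, on the cytochrome c side of the enzyme, stood at 4.17 and 3.07 in WT and at 5.74, 7.95, 6.30 and 5.60 in KO, and rose by 2.78 (SE 0.599, adjusted p = 0.00546 by limma), or 6.86-fold. Cox4i1, the regulatory subunit that binds ATP, stood at 6.88 and 6.20 in WT and at 8.20, 9.19, 8.08 and 7.57 in KO, and rose by 1.72. Cox7a2 rose by 1.57, Cox6a1 by 1.54 and Cox5a by 1.51, and in Cox7a2 and Cox5a the lowest KO replicate lay below the higher WT replicate. None of these 5 passed without WT replicate 3 and 4 or with the 16-month arrays alone. Cox8a stood at 7.60 and 6.87 in WT and at 7.23, 9.19, 7.84 and 6.39 in KO, and its difference of 0.43 (SE 0.6) turned to -0.082 without KO replicate 2. Cox7a2l, which links complexes III and IV into supercomplexes, stood at 6.42 and 6.41 in WT and at 6.58, 7.65, 6.57 and 6.16 in KO. Its difference was 0.33 (SE 0.33), and with quantile normalization it was -0.45 with an adjusted p of 0.0246 by limma. A dimmer probe of Cox7a2l rose by 1.51 (adjusted p = 0.0286 by limma) in a fit of single probes. Of the other genes of complex IV, Cox7b (1.52), Cox5b (1.17), Cox6c (0.96) and Cox7c (0.85) did not pass.

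Among the genes are 8 isoforms known from particular tissues, such as heart and skeletal muscle (Cox6a2, Cox7a1, Cox8b), testis (Cox6b2, Cox7b2, Cox8c), and lung or low oxygen (Cox4i2, Ndufa4l2). None of the 6 tested passed at 16 months. Cox8b stood at 4.60 and 1.74 in WT and at 3.41, 7.21, 4.69 and 2.43 in KO, and Cox7a1 at 2.58 and 0.72 against 2.10, 6.59, 3.59 and 1.51. Cox6b2 stood at 3.16 and 1.12 in WT and at 1.73, 6.22, 3.71 and 1.95 in KO. In these 3 genes replicate 2 of the KO was the highest, and 2 of the other KO replicates lay below the higher WT value. Cox6a2 ran the other way, from -0.65 and 3.08 in WT to -1.89, 1.06, 0.35 and -0.28 in KO, and turned to a difference of 0.46 without WT replicate 3 and 4. Cox4i2 stood at -3.43 and -2.47 in WT and at -1.97, -1.32, -1.98 and -2.79 in KO.

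Complex V is described by the parts of the enzyme, which were not tested against each other. In the F1 head, where ATP is made, 4 of 5 rose: Atp5c1 (gamma, the rotating shaft), Atp5d (delta), Atp5a1 (alpha) and Atp5b (beta, which holds the catalytic sites). Atp5c1 stood at 5.88 and 5.29 in WT and at 7.83, 7.93, 7.28 and 7.26 in KO, and rose by 1.99 (SE 0.268, adjusted p = 0.000516 by limma), or 3.96-fold. Atp5b stood at 6.95 and 6.32 in WT and at 7.78, 8.40, 7.58 and 7.38 in KO, and rose by 1.15, and Atp5a1 rose by 1.42 and Atp5d by 2.18. Atp5e (epsilon) had a difference of 1.16 with a standard error of 0.879. All 4 subunits of the peripheral stalk, which keeps the head from turning, rose: Atp5o (2.00), Atp5j (1.85), Atp5pb (1.64) and Atp5h (1.48). Atp5o stood at 4.86 and 3.07 in WT and at 5.91, 6.99, 5.61 and 5.34 in KO.

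The 3 genes Atp5g1, Atp5g2 and Atp5g3 encode the same c subunit of the proton-driven ring. Atp5g1 rose by 1.68 and Atp5g3 by 1.11, while Atp5g2 stood at 6.64 and 5.80 in WT and at 5.96, 8.16, 6.70 and 5.57 in KO, with a difference of 0.37 (SE 0.591). Of the 5 small membrane subunits that join ATP synthase into dimers or sit beside the ring, none passed: Atp5md (1.10), Atp5mpl (1.00), Atp5j2 (0.58), Atp5l (0.19) and Atp5k (-0.36). Atp5k stood at 6.10 and 4.72 in WT and at 3.89, 8.12, 5.48 and 2.71 in KO, the widest span of KO replicates in the 90 genes, at 5.41 units. The 10 complex V genes that rose had no overlap between WT and KO. Of them, 2 passed without WT replicate 3 and 4, and Atp5c1 alone passed with the 16-month arrays alone.

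**Figure D2:**
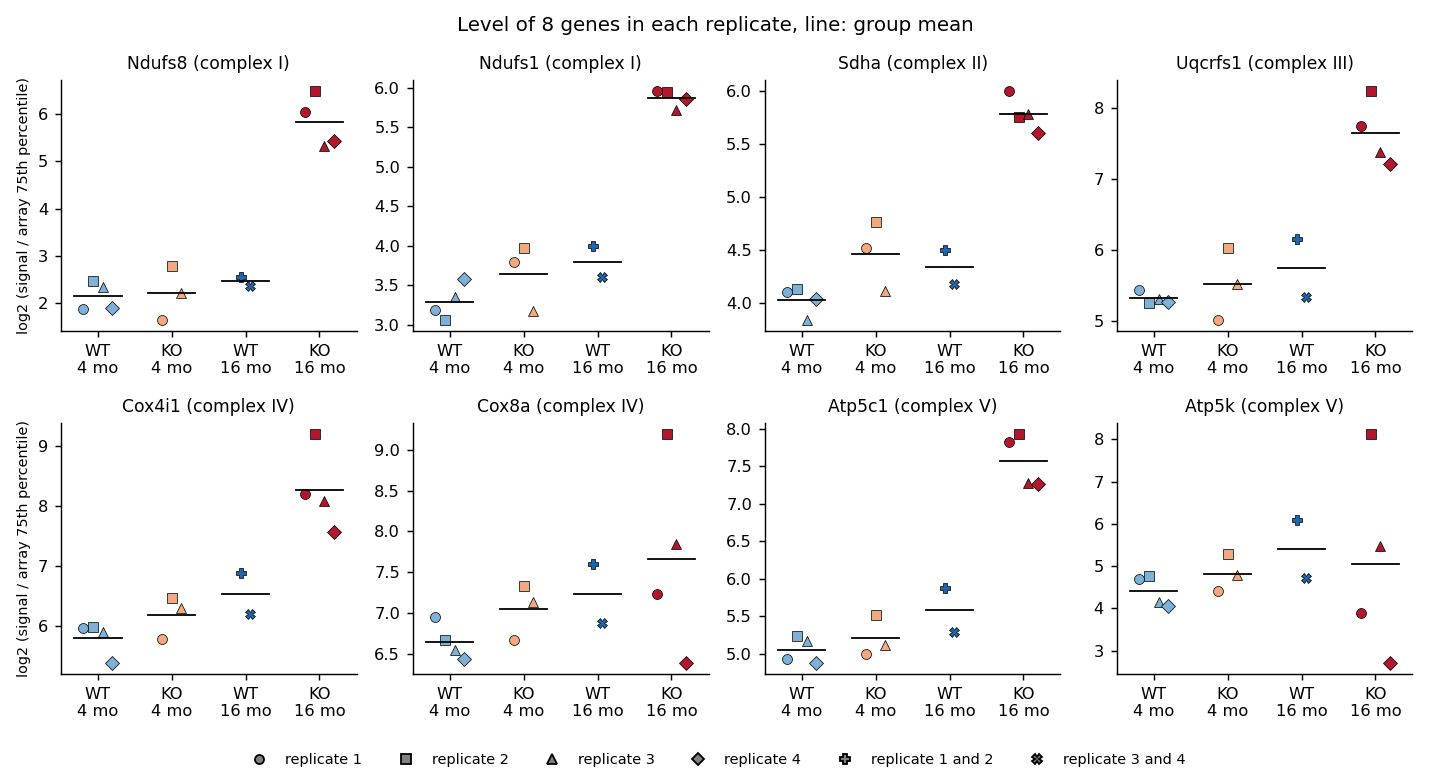
Level (log2 of signal over the array's 75th percentile) of 8 genes in each replicate of the 4 groups, with a line at each group's mean; replicate numbers are given by symbol. In Ndufs8, Ndufs1, Sdha, Uqcrfs1, Cox4i1 and Atp5c1 all KO replicates of 16 months lie above both WT replicates, and in Cox8a and Atp5k they overlap.

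The KO replicates of 16 months differed among themselves in 1 recurring order. In 81 of the 90 genes above background on all arrays replicate 2 was the highest of the 4, and in 76 replicate 4 was the lowest. The median level of the 90 genes was 6.21, 8.15, 6.70 and 5.62 in KO replicates 1 to 4, against 5.94 in WT replicate 1 and 2 and 4.72 in WT replicate 3 and 4, and in 82 of the 90 the first WT replicate was above the other. Replicate 4 thus had a median below that of 1 WT replicate. Replicates 1, 2, 3 and 4 lay above both WT replicates in 62, 88, 82 and 44 of the 90 genes. The span of the 4 KO replicates had a median of 1.38 in the genes that rose and of 2.83 in those that did not pass, a difference that the test itself favours. It was 1.17 in the core subunits of complex I, 2.35 in its accessory subunits and 3.22 in the membrane subunits of ATP synthase. The span at 4 months had a median of 0.49 in WT and 0.75 in KO. KO replicate 2 had the lowest 75th percentile of all 15 arrays, 507, and KO replicate 4 the highest of its group, 1037. The median level of all 17866 features above background on every array was 0.78, 0.93, 0.87 and 0.69 in these 4 KO replicates.

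The marker sums of the same replicates are given beside these levels. At 16 months the choroid plexus sum was 466 in WT replicate 3 and 4, 848 in WT replicate 1 and 2, and 1320, 1830, 1930 and 2640 in KO replicates 4, 3, 1 and 2, so KO replicate 2 was the highest in both measures and WT replicate 3 and 4 the lowest. The order differed between these ends: KO replicate 4 was above WT replicate 1 and 2 in the choroid plexus sum and below it in the median of the genes, and KO replicate 1 was above replicate 3 in the sum and below it in the median. The microglia sum was 1500 and 899 in the same WT replicates and 516, 406, 191 and 212 in the same KO replicates. At 4 months the choroid plexus sums of KO and WT did not overlap, while the medians of the 90 genes did, at 4.42 to 4.92 in WT and 4.66 to 5.42 in KO. The part of the other cells, and of signal strength, in the differences at 16 months was not tested.

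**Figure D3:**
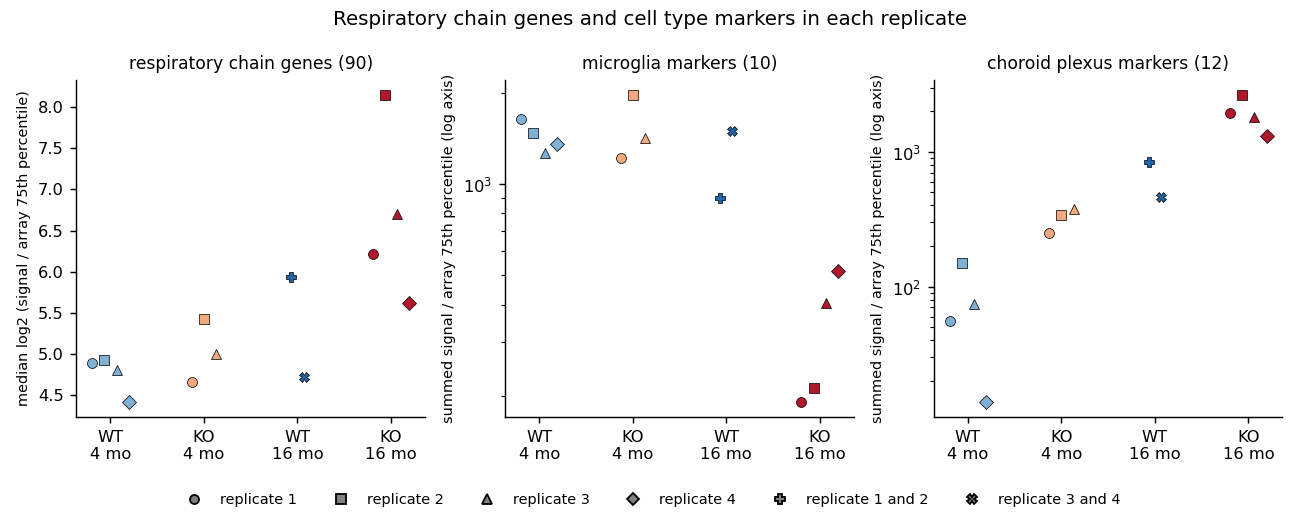
Median level of the 90 genes above background on all arrays (left) and summed signal over the array's 75th percentile of 10 microglia markers (middle) and 12 choroid plexus markers (right, both on log axes) in each replicate. At 16 months the KO replicates are low for the microglia markers and high for the choroid plexus markers, and KO replicate 2 is the highest in the left and right panels.

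At 4 months 0 of the 91 genes differed between KO and WT after adjustment by limma, and 2 had an unadjusted p below 0.05, Sdha and Cox8b. Of 31923 features in all, 1915 had an unadjusted p below 0.05, and after adjustment 0.0157% were higher and 0.00940% lower. The median difference of the genes was 0.24 against 0.00 for all features, and 83 of 91 were above 0. All KO replicates lay above all WT replicates for 5 genes and below them for 1, and for 5.0% and 6.65% of all features. Sdha stood at 4.10, 4.13, 3.84 and 4.04 in WT and at 4.52, 4.76 and 4.11 in KO, a difference of 0.44, with replicate 3 of the KO inside the WT range. Cox8b stood at -3.05, -0.90, -2.19 and -4.78 in WT and at -0.25, 0.30 and -0.27 in KO, a difference of 2.66. The 3 other isoforms of muscle or testis without overlap were Cox6a2 (1.43), Cox7a1 (1.12) and Cox6b2 (0.76). Atp5b was the fifth, with a difference of 0.24. Of the 6 tissue isoforms tested, 2 had differences below 0 and overlapped. These were Cox4i2 (-0.08) and Ndufa4l2, which was at the lowest level told from background in KO. Ndufaf5 was the gene below, at -2.20, -1.75 and -1.35 in KO and -0.96 to -0.60 in WT.

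**Figure D4:**
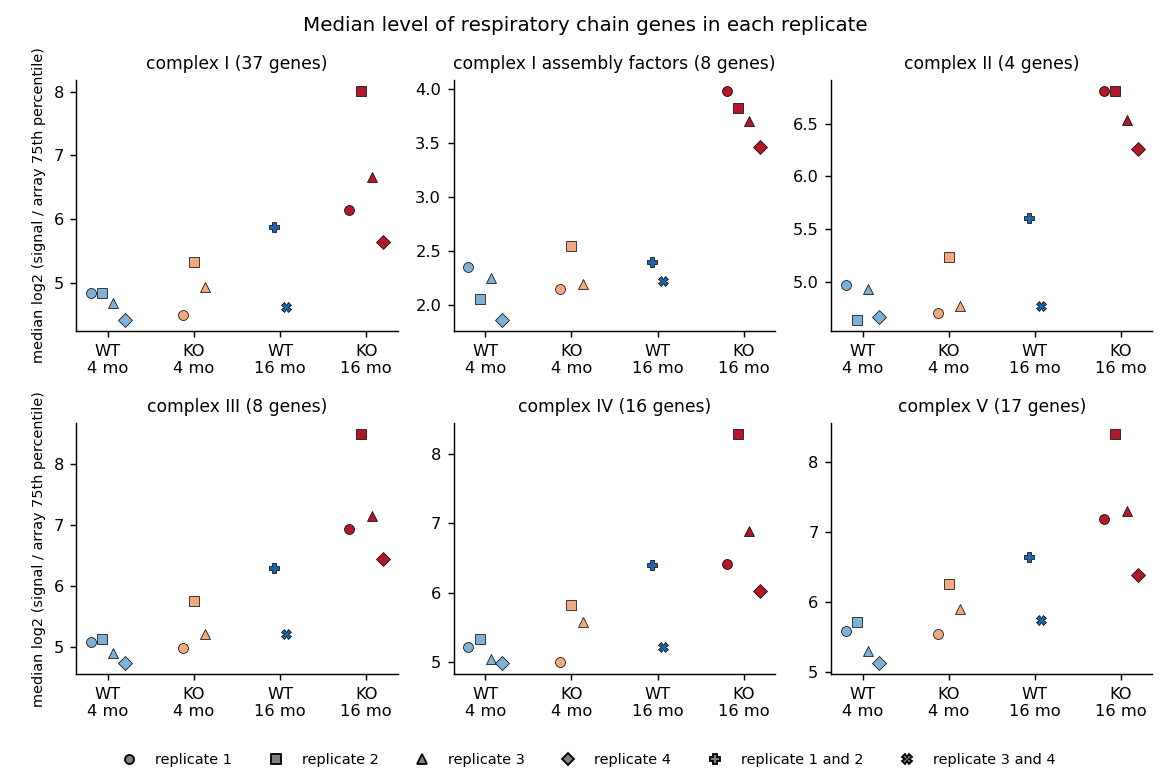
Median level (log2 of signal over the array's 75th percentile) of the genes of each complex above background on all arrays, in each replicate of the 4 groups. At 4 months WT and KO overlap in every panel, and at 16 months KO replicate 2 is the highest in complexes I, III, IV and V.

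The signed difference, KO minus WT, was larger at 16 than at 4 months for 16 of the 91 genes and smaller for 0. The interaction contrast of the same fit tested this. Of all features, 6.84% had a larger and 6.51% a smaller signed difference, and a smaller one can be a deeper fall in KO. Among the 16 were Ndufs8 (3.29), Ndufa11 (2.34), Ndufs4 (2.17), Ndufa9 (1.90), Ndufa10 (1.85), Ndufv2 (1.81) and Ndufs1 (1.72) of complex I, the assembly factors Ndufaf2 (2.40) and Ndufaf1 (1.13), Sdhd (1.99), Sdhb (1.59) and Sdha (1.01) of complex II, Uqcrfs1 (1.70) of complex III, and Atp5c1 (1.83) and Atp5pb (1.53) of complex V. No gene of complex IV was among them, where the smallest adjusted p was 0.0754 by limma, for Cox6b1. Ndufs8 had a difference of 0.07 at 4 months and 3.37 at 16 months (adjusted p of the interaction 0.00416 by limma). The count fell to 6 without WT replicate 3 and 4 of 16 months, and to between 8 and 10 without any single WT array of 4 months or without KO replicate 1 or 3 of 4 months.

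**Figure D5:**
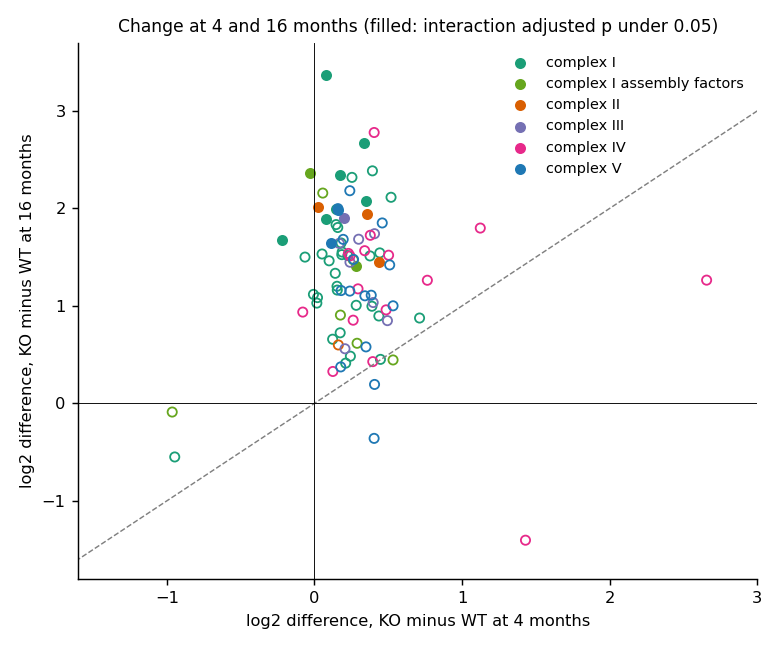
Log2 difference, KO minus WT, at 4 months (x) and at 16 months (y) for 90 of the 91 genes tested, coloured by complex; filled points passed the test of the difference between ages and the dashed line marks equal differences. Most points lie above the line, between -0.22 and 0.71 at 4 months, and Cox8b lies farthest right at 2.66.

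Genes around the respiratory chain were read from lists of their roles, beside 19.3% of all features that rose and 15.0% that fell at 16 months. Cytochrome c1 (Cyc1), the heme subunit of complex III, stood at 2.92 and 2.92 in WT and at 6.16, 6.28, 5.83 and 5.86 in KO at 16 months, and rose by 3.11 (SE 0.254, adjusted p = 5.62e-05 by limma), or 8.64-fold. Cytochrome c (Cycs), which carries electrons from complex III to IV, rose by 2.08. Of 35 other assembly factors of complexes I to V, 20 rose and 1 fell. Timmdc1, a complex I assembly factor, stood at -3.05 and -1.83 in WT and at 2.79, 4.03, 3.68 and 2.07 in KO, and rose by 5.58, or 47.9-fold. Cox10, which makes heme O for complex IV, fell by 3.41. It was not well above background on every array, so the size of this fall can include signal at background. Of 18 genes of pyruvate entry and the citric acid cycle, 13 rose and 0 fell, led by Pdha1 (3.09), the catalytic subunit of pyruvate dehydrogenase. Of 11 electron carriers and exchangers, 8 rose, led by Etfa (2.38), and of 10 genes of ubiquinone synthesis 4 rose, led by Coq7 (2.76).

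Of 14 regulators of mitochondrial genes, 3 rose and 3 fell at 16 months. Each is 21.4%, near the 19.3% of all features that rose and the 15.0% that fell. Tfam, which packages and transcribes mitochondrial DNA, rose by 1.58, and Twnk, the mitochondrial helicase, fell by 2.29. Twnk was not well above background on every array, so the size of its fall can include signal at background. The factors whose letters were searched above are named here after their values were seen. Nrf1 stood at 0.99 and 1.93 in WT and at -1.23, 0.72, 0.05 and -0.14 in KO, and fell by 1.61. Gabpb1 stood at 1.97 and 3.14 in WT and at 0.43, 0.84, 0.81 and 0.59 in KO, and fell by 1.89. Gabpa, the GABP subunit that binds the ETS letters, stood at 1.60 and 2.63 in WT and at 3.81, 1.90, 3.30 and 4.00 in KO, and its difference of 1.14 (SE 0.599) did not pass. Yy1 had a difference of 0.16 (SE 0.259), which did not pass either. Ppargc1a, a coactivator of respiratory genes, had a difference of 1.40 that did not pass. In these 7 lists, with the 13 genes of the mitochondrial genome not matched to a probe, none passed at 4 months.

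Of the 24 member genes with more than 1 probe tested, the probes of 1, Ndufaf5, differed in sign at 16 months in a fit of single probes, and no gene had probes that passed in opposite directions. Besides Cox7a2l, the genes Sdhc and Uqcr10, read as not passing from their brightest probe, each had a dimmer probe that rose, by 1.35 (adjusted p = 0.0449 by limma) and 3.11 (adjusted p = 0.0185 by limma). Conversely, the probes of Atp5g3, Ndufb8 and Cox7a2, which rose in the main analysis, did not pass in the fit of single probes (adjusted p = 0.0504, 0.0533 and 0.0541 by limma). Counted by probe, 56 of 122 rose and 0 fell. Across 23 settings of processing and left-out samples, 11 genes rose in every one: Ndufs1, Ndufs4, Ndufs8 and Ndufa10 of complex I, Ndufaf1 and Ndufaf2, Sdha, Sdhb and Sdhd, Uqcrfs1 and Atp5c1. The lowest counts among genes that rose in the main analysis were Cox7a2 (5 settings), Ndufb8 (7), Atp5g3 (8), Ndufaf7 (8) and Ndufb11 (9). The remaining genes rose in 17 to 22 settings. The 23 settings include the main analysis. They also include fits without a sample of the younger age, which left the median differences of the complexes at 16 months unchanged.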

How the data were processed

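RNA of sorted microglia was hybridised to 15 one-colour Agilent arrays of design 028005, which the authors scanned and read with Feature Extraction 10.7.3.1, per the file headers. R 2.15.3 is named as well, per the submitters' processing notes. The submitters left out 1 of 16 microglia samples. The deposited spot intensity (processed signal) is background-subtracted; at 4 months it also differs from the subtracted signal by a factor that varies with position, and at 16 months it does not. Outlier spots were left out, spots of a probe averaged, each array scaled to its 75th percentile and log2 taken above a floor of 0.0325. The deposited flags for spots (a unit of another kind, yes or no, per the file headers) gave the filter of at least 3 arrays well above background.

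Probes were named through their RefSeq accession, and the brightest probe stood for a gene. Of 55681 probes, 26582 had a symbol. One limma 3.58.1 fit (R 4.3.3) with a mean per genotype and age gave each difference, adjusted by Benjamini-Hochberg over all features and two-sided. The script was tested on simulated data. The genes, their classes and the other lists were chosen with earlier results of these data known. Named members were, per complex, the 2 with the highest mean level and the 2 largest changes that passed, those with the smallest p at 4 months and for the interaction, isoform sets and catalytic subunits; other members are named to account for the lists. Alternatives were another percentile, quantile normalization, other filters, the mean of a gene's probes, 15 separate arrays, the 16-month arrays alone, replicate numbers as a block, and each replicate left out. Normexp on the median spot signal was chosen after the files were seen, since they hold no mean signal. The bead arrays of brain regions were not used here. The values of 1 member, kept in the counts and medians, are not reported here. The number of arrays limits the precision.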

Additional observations from a re-analysis of the deposited data

Results flagged for a closer look

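The difference between KO and WT was larger at 16 than at 4 months in the test of the interaction for 16 genes, and for 15 of them by these amounts on the log2 scale: Ndufs8 3.29, Ndufaf2 2.40, Ndufa11 2.34, Ndufs4 2.17, Sdhd 1.99, Ndufa9 1.90, Ndufa10 1.85, Atp5c1 1.83, Ndufv2 1.81, Ndufs1 1.72, Uqcrfs1 1.70, Sdhb 1.59, Atp5pb 1.53, Ndufaf1 1.13 and Sdha 1.01. Age and slide cannot be told apart in them.

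In 7 of 92 sets of 4 values, 1 sample stood far from the other 3, where chance gives about 1 in 20. Replicate 4 of the WT at 4 months was low in Uqcrb (5.06), Cox4i1 (5.39) and Cox6b1 (2.49). Replicate 1 of that group was high in Sdhc (5.38) and in Cox7a2l (6.81), and replicate 2 in Uqcrc1 (3.61). Replicate 1 of the KO at 16 months was high in Ndufaf4 (4.18).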

How the results depend on the processing

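Of the 46 genes that rose at 16 months, between 36 and 46 also rose under each other scaling, filter, probe rule, background correction and the replicate block, and 13 did with the 16-month arrays fitted alone, where 13 of 91 rose in all. Leaving out 1 sample at a time gave 19 to 56 genes that rose and 0 to 1 that fell. The 1 that fell was Cox6a2, without WT replicate 1 and 2. With quantile normalization 1 gene fell, Cox7a2l. The interaction count of 16 was 26 with the 15 arrays as separate replicates and 6 with the replicate block, which changed the count at 16 months to 41, and 6 to 24 with 1 sample left out (8 without WT replicate 1 of 4 months), with 0 to 1 smaller. At 4 months samples of the same number did not deviate together (r = -0.042, -0.036 and -0.041), so the numbers were not taken to pair the samples. Of the 91 differences at 16 months, 87 were above 0 in the main analysis and 75 with quantile normalization. Without WT replicate 3 and 4 it was 79, and without KO replicate 2 also 79. Single sign changes were listed only for the members named by the rule above, and none of those passed in the main analysis. With quantile normalization they were Sdhc (-0.18), Cox8a (-0.23), Cox7a2l (-0.45) and Atp5g2 (-0.42). Without KO replicate 2 they were Cox8a (-0.082), Atp5g2 (-0.15) and Ndufaf5 (0.037). Without WT replicate 3 and 4 they were Cox8b (-0.17), Cox6a2 (0.46) and Atp5g2 (-0.045). Ndufaf5 also changed sign without WT replicate 1 and 2 (1.07), without KO replicate 3 (0.076) and with the mean of its probes (0.081). Ndufa4l2 did so with normexp (0.018). With 1 sample left out Cox8a reached up to 0.85 and Atp5g2 up to 0.72. The causes were not tested. The median difference of all the genes relative to all features kept its direction in every setting for both ages and the interaction; for single complexes 1 did not, that of complex IV in the interaction, which was -0.032 without WT replicate 3 and 4. Signal over background limits Ndufa4l2, Cox7b2 and Cox8c.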
